A study of Mus musculus with 9 samples.

Results

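miR-210 is a microRNA (miRNA), a short RNA that pairs with messenger RNAs through the bases of its seed and lowers their translation or stability. Its hairpin precursor gives 2 mature arms, mmu-miR-210-3p and mmu-miR-210-5p (without the mouse prefix below), and both were taken from the array by name, out of 1881 mouse miRNAs, with each of the 2 probes per arm read separately. The data were livers of male C57BL/6J mice aged 20 weeks, as 9 pools of 4 mice on 9 one-colour Agilent arrays. In the metformin group (3 pools), mice were fed for 17 weeks with 45% of dietary energy as fat, starting at 3 weeks of age, and for the last 5 weeks received metformin, a glucose-lowering drug, into the stomach at 3 mg per kg per day. The high fat diet group (3 pools) ate that diet and received saline in the same way, and the control group (3 pools) ate chow. No vehicle is named for the control group. Each array measured a pool, so the spread between arrays is one between pools and not between single mice.

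Cells short of oxygen stabilise hypoxia-inducible factors (HIFs), transcription factors that raise genes of glycolysis, blood vessel growth and red cell production. The miR-210 gene is among the direct HIF targets found in human and mouse cells, and its 3p arm is the one usually measured as a marker of the hypoxic response. In human cells miR-210-3p represses ISCU, an assembly factor for iron-sulphur clusters of the mitochondrial respiratory chain, and EFNA3, an ephrin ligand. In the liver HIFs also act on lipid storage and glucose metabolism.

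The sequences of both arms and of their precursor are shown because the 2 arms gave different results and the probes are named after them. They come from RefSeq on the mouse build GRCm38.p6, where both arms matched by name, and lie on the minus strand of chromosome 7. The 3p arm is at chr7:141221407-141221428 and the 5p arm at chr7:141221445-141221466, within a hairpin at chr7:141221384-141221493. In the mature arms, capitals mark the seed (bases 2 to 8), and in the hairpin they mark the arms, the 5p arm first.
miR-210-3p: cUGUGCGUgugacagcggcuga
miR-210-5p: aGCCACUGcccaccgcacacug
Mir210 hairpin: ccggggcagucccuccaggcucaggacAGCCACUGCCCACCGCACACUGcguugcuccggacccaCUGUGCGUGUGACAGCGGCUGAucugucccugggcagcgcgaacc

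Both arms are rich in G and C, at 63.6% of 22 bases in the 3p arm and 68.2% in the 5p arm. In the predicted fold of the hairpin 17 bases of the 3p arm and 18 of the 5p arm are paired. Neither seed occurs in any other of the 1679 mature mouse miRNAs in the table, so miR-210 has no seed family there. The mature sequences closest to the 3p arm, miR-698-5p and miR-7672-5p, are 7 base edits away, and those closest to the 5p arm, miR-7658-3p and miR-7674-3p, are also 7 edits away. All 4 have probes on the array and were detected on 0 of 9 arrays. No annotated gene overlaps the hairpin, and the nearest, Rassf7, is 2726 bases away. The file headers name another build (mm9), and the arrays themselves carry no coordinates.

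The livers had the miRNAs of their tissue. All 5 hepatocyte miRNAs listed as markers were detected in every group. Their summed level lay at 10692% to 12032% of each array's scaling value with metformin. It lay at 9806% to 10975% on the high fat diet with saline and at 10393% to 11739% in controls, so the sums overlapped. Most of each sum was miR-122-5p, so this overlap does not describe the other hepatocyte markers. On 6 of the 9 arrays, columns at an edge held spots of bright probes that had lost signal, and these strips were defined by at least 10% of such spots being under 50% of their level, so some spots inside them kept their signal. These strips covered 31.1% of the spots of 1 metformin array, 33.6% and 53.6% of 2 high fat diet arrays and 41.1% to 43.8% of the 3 control arrays. They were left out, and levels below are the median intensity of a probe's remaining spots as a percentage of the array's 75th percentile over 187 probes detected on every array. That 75th percentile was an intensity of 193 to 323, over a mean local background of 16.1 to 21.0. A probe was detected on an array where a share above 0.5 of the spots was well above background.

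One array stood apart. Replicate 3 of the high fat diet group had the skeletal muscle miRNAs miR-133a-3p at an intensity of 300.0, miR-1a-3p at 239 and miR-206-3p at 34.7. On the other 8 arrays these reached at most 16.5, 17.5 and 5.49. The miR-210-3p differences and the list counts that rest on the high fat diet group are also given without that array.

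miR-210-3p was dim in every group, and the brighter of its probes (A_54_P1443) was highest with metformin, intermediate on the high fat diet with saline and lowest in controls. Its median intensity over remaining spots was 22.4, 25.3 and 19.2 on the 3 metformin arrays, 19.2, 19.7 and 27.1 with diet and saline, and 12.3, 9.01 and 15.3 on the control arrays. Before any scaling, every metformin and high fat diet array was brighter than every control array. In unscaled intensity the same held for 43.4% of the 143 tested miRNAs in the high fat diet group and for 25.2% in the metformin group, each against controls. As a percentage of the scaling value, the metformin arrays were at 8.92%, 11.0% and 8.09%. The high fat diet arrays were at 8.67%, 7.04% and 8.39%, and the control arrays at 6.38%, 4.07% and 6.81%. The scaled levels of the metformin and high fat diet groups overlapped, and neither overlapped the control group.

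**Figure D1:**
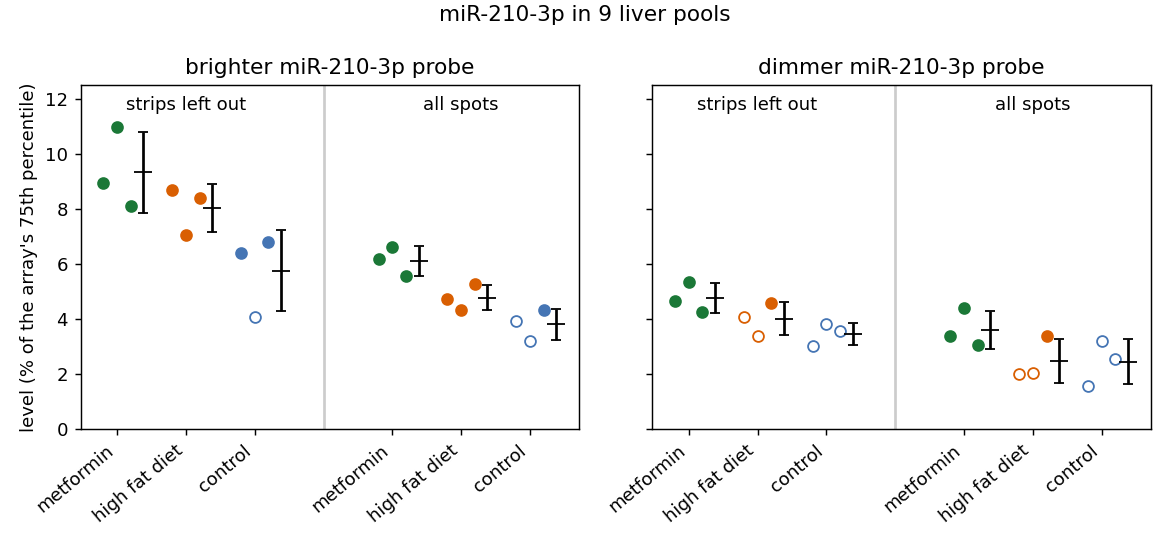
Level of the brighter (left panel) and dimmer (right panel) miR-210-3p probe as a percentage of the array's 75th percentile, for the metformin, high fat diet and control groups, with edge strips left out and with all spots. Each point is 1 array (filled where the probe was detected, open where not), and black marks are the mean and SD of 3 arrays. In both readings of the brighter probe all metformin and high fat diet arrays lie above all control arrays.

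The brighter probe was detected on 3 of 3 metformin arrays, on 3 of 3 arrays of the high fat diet group and on 2 of 3 control arrays, the exception being control replicate 2. Its mean level was 9.32% ± 1.47 with metformin, 8.04% ± 0.870 on the high fat diet and 5.75% ± 1.47 in controls (SD, n = 3 each). On the log2 scale these were -3.43 ± 0.22, -3.64 ± 0.16 and -4.16 ± 0.40 in the same order. The rule takes miR-210 by name, but it was selected on results of these arrays, its levels and detection in the 3 groups, so its differences are given with their standard errors as a description and without a test.

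The question of diet is addressed by the high fat diet group against controls. The log2 difference of the brighter probe was 0.51 (SE 0.19), or 1.43-fold higher on the high fat diet, against a pooled SD between arrays of 0.31. The probe was detected on 2 of 3 control arrays. With each control array set no lower than the lowest detected signal of that array, the fold was 1.29. This setting covers only the control array without detection, and not the spread between arrays or the choice of reading. Of the 143 miRNAs that could be tested, 2 had a higher difference in this contrast and 11 a larger one in either direction. Over the 143 the median difference was 0.03 and the median SE 0.12. miR-210-3p passed the detection filter only through the metformin and high fat diet groups, where it was higher. Its place among the 143 therefore leans on that filter. In 21.7% of the 143 miRNAs the high fat diet arrays all lay above the control arrays, as they did for miR-210-3p, so this separation was common here. Without high fat diet replicate 3, the array with the muscle miRNAs, the difference was 0.42. Without control replicate 2 it was 0.30, a move of over 1.5 times. It was -0.084 after normexp background correction, whose offset of 50 exceeds this probe's signal, where the median of all miRNAs was -0.12. It was 0.89 with the 75th percentile taken over all probes, which moved the median of all miRNAs to 0.56. With no scaling between arrays it was 0.78, around a median of 0.37.

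The question of metformin on top of the diet is addressed by the metformin group against the high fat diet group. The log2 difference of the brighter probe was 0.21 (SE 0.19), or 1.16-fold higher with metformin, close to the pooled SD between arrays of 0.19, and the groups overlapped. In this contrast 12 of the 143 miRNAs had a higher difference and 24 a larger one in either direction, around a median of -0.06. Without high fat diet replicate 3 the difference was 0.24, without high fat diet replicate 2 it was 0.11, and without metformin replicate 2 it was 0.086. With the 75th percentile taken over all probes it was 0.48, around a median of 0.21. With no scaling it was 0.030, around a median of -0.24, and with normexp or the mean of the remaining spots it was 0.12, around medians of 0.05 and -0.06.

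Against controls, the metformin group had a log2 difference of 0.72 (SE 0.19), or 1.65-fold higher, with a pooled SD between arrays of 0.33. The probe was detected on 2 of 3 control arrays. With the controls set in the same way as for the diet, the fold was 1.49, and the same limits apply to it. One other miRNA (1 of 143) had a higher difference and 2 had a larger one in either direction, under the same detection filter. The metformin arrays all lay above the control arrays for 12.6% of the 143 miRNAs. Leaving out each array in turn gave 0.49 to 0.88, the lowest without control replicate 2. It was 0.031 after normexp, around a median of -0.07, and 1.37 with the percentile over all probes, around a median of 0.80. This contrast shares its control arrays with the diet contrast, so the 2 differences are not separate observations.

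Single spots of the brighter probe show what these medians rest on. Each probe had 15 spots on an array, and of its 96 spots outside the strips on all 9 arrays, 85 were well above background. On the metformin arrays these were 15 of 15, 9 of 10 and 15 of 15 spots, with diet and saline 8 of 8, 13 of 15 and 6 of 6, and on the control arrays 7 of 8, 4 of 9 and 8 of 10. The control arrays thus had 8 to 10 usable spots, the metformin arrays 10 to 15 and the high fat diet arrays 6 to 15. Of the 39 spots inside strips, 7 were well above background, 5 of them on high fat diet replicate 3. The median of the spots inside strips was 4.86 on metformin replicate 2, -0.242 and 19.1 on high fat diet replicates 1 and 3, and 0.645, 0.112 and 4.58 on control replicates 1, 2 and 3.

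**Figure D2:**
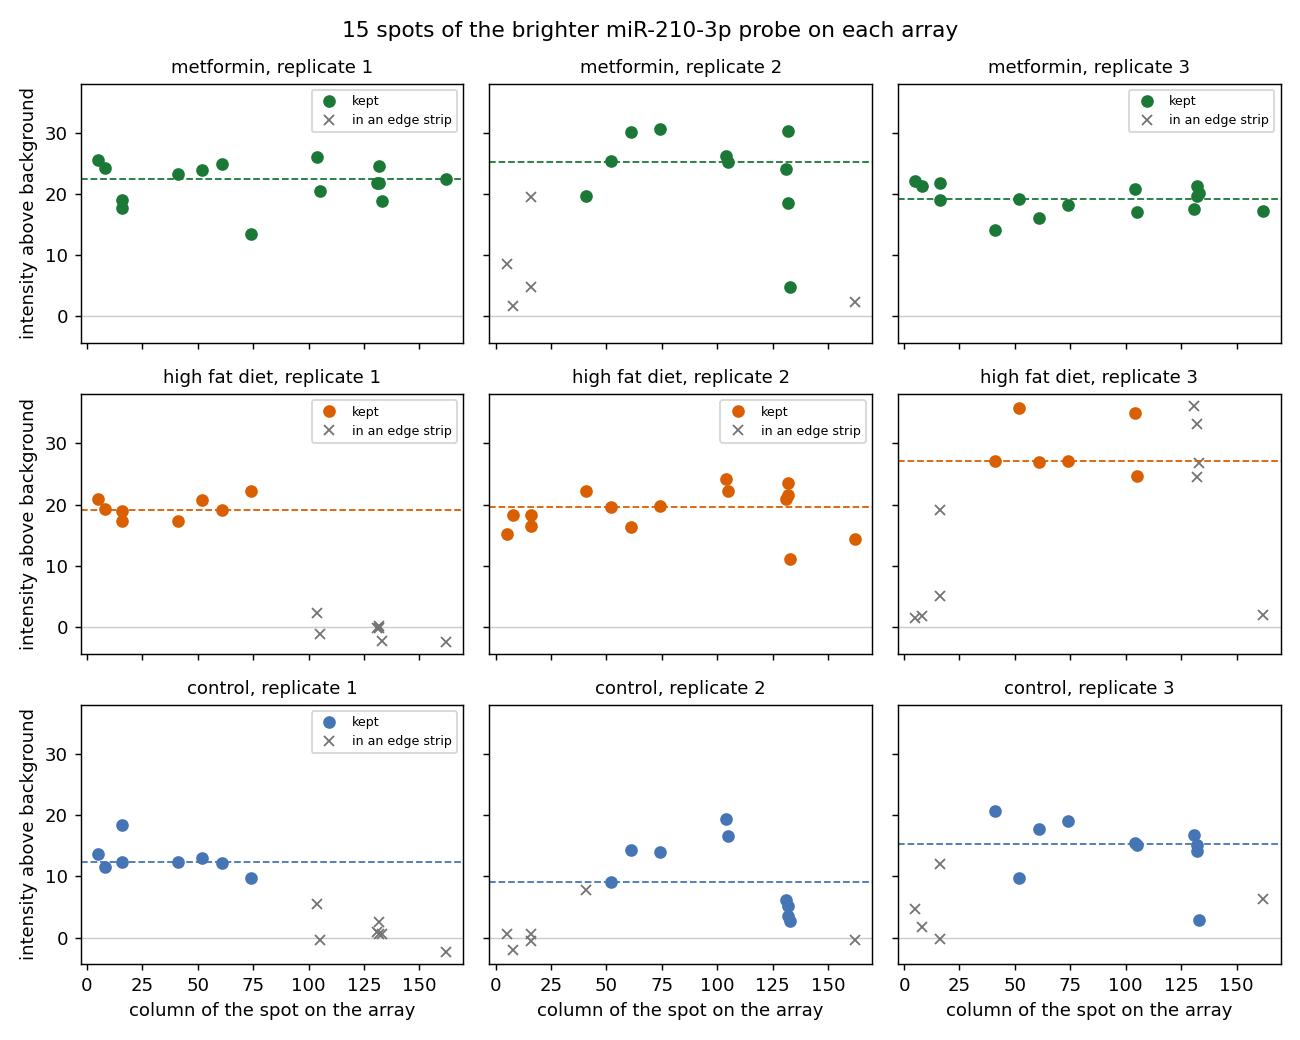
Background-subtracted intensity of each of the 15 spots of the brighter miR-210-3p probe against the column of the spot, 1 panel per array, with rows of panels for the metformin, high fat diet and control groups. Filled points were kept, crosses lay in an edge strip, and dashed lines mark the median of the kept spots. On control replicate 2 the 4 kept spots in columns 131 to 133, beside the strip, lie below the 5 in columns 52 to 105.

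The low value of control replicate 2 rested on part of its spots, and an effect of their position was not tested. Its 5 kept spots in columns 52 to 105 had intensities of 9.01 to 19.3, with a median of 14.3. Its other 4, in columns 131 to 133 next to the right strip, had 2.67 to 6.16, with a median of 4.33. On the same array the dimmer 3p probe read 8.91 and 9.33 in columns 133 and 134, and 1.31 in column 127. Columns 45 to 76 were kept on all 9 arrays and held 3 spots of the brighter probe per array. When only these were read, the intensities were 23.9, 30.1 and 18.2 with metformin, 20.8, 19.7 and 27.2 on the high fat diet, and 12.2, 14.1 and 17.7 in controls. After scaling they were at 9.56%, 13.4% and 7.44% with metformin, 9.76%, 7.98% and 8.99% on the high fat diet, and 6.87%, 6.78% and 7.75% in controls. The metformin and control groups then overlapped, while the high fat diet arrays lay above the controls, as for 27.5% of the 142 miRNAs tested in those columns. With those columns alone the log2 differences after scaling were 0.32 for high fat diet against control, 0.15 for metformin against high fat diet and 0.47 for metformin against control. Each was smaller than with all kept columns, and this reading was chosen after seeing the data.

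With all spots and no strips left out, the brighter probe was at 6.18%, 6.62% and 5.54% on the metformin arrays, at 4.72%, 4.34% and 5.27% with diet and saline, and at 3.92%, 3.19% and 4.31% on the control arrays. It was then detected on 1 of 3 control arrays. The log2 differences were 0.33 for high fat diet against control, where the median of all miRNAs moved to -0.22. They were 0.36 for metformin against high fat diet, where the median moved to 0.16, and 0.69 for metformin against control, where it was 0.02. The order of the 3 groups was the same in both readings, but with all spots the metformin arrays all lay above the high fat diet arrays, as for 20.9% of the 139 miRNAs tested there. In that reading the groups separated from controls for 3.6% of miRNAs on the high fat diet and 12.2% with metformin, in the direction of miR-210-3p.

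The dimmer 3p probe (A_54_P1444) had median intensities of 11.7, 12.3 and 10.1 with metformin, 9.04, 9.46 and 14.7 on the high fat diet, and 5.81, 8.41 and 8.03 in controls. It was detected on 3 of 3 metformin arrays, on 1 of 3 high fat diet arrays (replicate 3) and on 0 of 3 control arrays. As a percentage of the scaling value it was at 4.66%, 5.32% and 4.26% with metformin, 4.08%, 3.39% and 4.56% on the high fat diet, and 3.01%, 3.80% and 3.56% in controls. All metformin arrays lay above all control arrays, as for 26 of the 226 probes fitted, while the high fat diet arrays overlapped the controls. The probe was among those 226 only because it was detected on 3 of 3 metformin arrays. Its separation from controls is thus partly set by that filter and is given as a description. On 4 of 9 arrays this probe was at or under the floor of 4.06% set for the log2 scale. In controls it was never detected, so no measured fold is given. With control arrays set no lower than their lowest detected signal, as for the brighter probe, the fold was 0.89 for metformin. It was 0.75 for the high fat diet. As the controls stand at a limit there, these values show neither a rise nor a fall. Of its 109 spots outside strips, 47 were well above background.

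The scanner software adds up only those probes it detects, and this set differed between arrays for miR-210-3p. Its total signal was 7.16, 6.39 and 6.28 on the metformin arrays, each the sum of 2 probes. On the high fat diet arrays it was 2.15 and 4.14 from 1 probe each and 7.59 from 2 probes. On the control arrays it was 1.56 from 1 probe, the placeholder of 0.1 with none detected, and 3.85 from 2 probes. In the authors' deposited table the log2 values were 0.73, 1.19 and 0.54 with metformin, 0.39, -0.02 and 0.57 on the high fat diet, and -0.16, -4.38 and 0.44 in controls, and -4.38 was the value of a miRNA not detected on that array. A difference in that table therefore mixes a change in intensity with a change in the number of probes added.

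**Figure D3:**
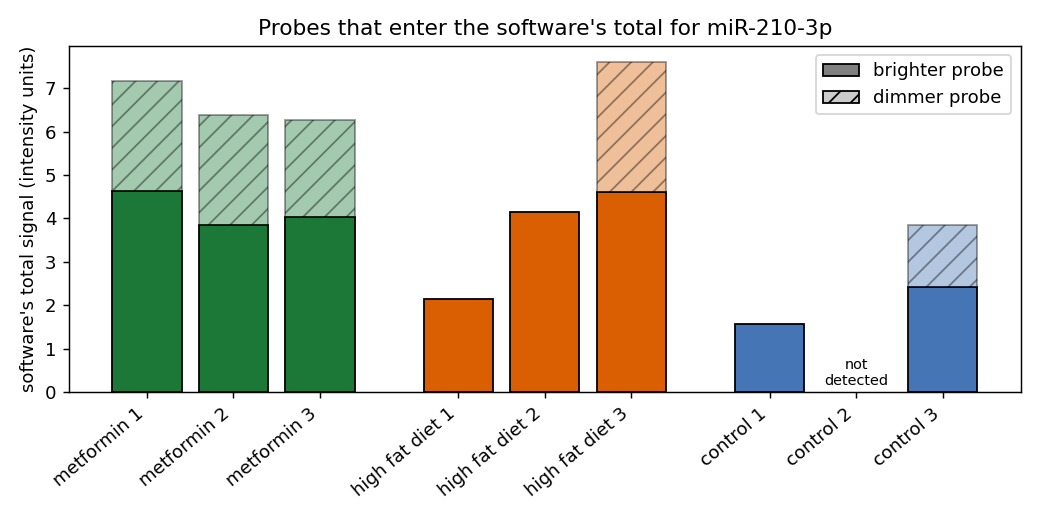
The scanner software's total signal for miR-210-3p (intensity units) on each of the 9 arrays, metformin, high fat diet and control from left to right, split into the brighter probe (solid) and the dimmer probe (hatched). Both probes enter on all 3 metformin arrays, and neither on control replicate 2.

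miR-210-5p was not detected. Each of its probes was detected on 0 of 9 arrays, with median intensities of -2.53 to -0.970 for A_54_P00005066 and -1.73 to 0.973 for A_54_P00005067. Of their remaining spots, 0 of 106 and 3 of 94 were well above background. No fold is given between groups for this arm. The 3p arm was thus the only arm of the hairpin with measurable signal on these arrays, though signals of different probes cannot be set against each other as amounts.

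The other miRNAs of the hypoxic response were described from 2 lists. List A held 16 miRNAs reported to rise in hypoxic human cancer cell lines, and 12 could be tested. List B held 13 reported to act on transcripts of the HIF pathway, and 6 could be tested, with miR-107-3p in both lists. The others were miR-106a-5p, which was not on the array by that name, and miRNAs detected on 0 arrays, among them miR-155-5p and the 3 miR-181 arms. With limma and Benjamini-Hochberg adjustment over all 143 miRNAs, 0 of the 17 distinct listed miRNAs passed 0.05 in any of the 3 contrasts. Over all miRNAs, 14% passed for high fat diet against control, 1.4% for metformin against high fat diet and 1.4% for metformin against control.

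For high fat diet against control, all 12 tested miRNAs of list A had positive log2 differences, of 0.02 to 0.22, with a median of 0.17 against 0.03 over all miRNAs, of which 54.5% were positive. That count was 5 of 12 with all spots (median -0.00 against -0.22 over all miRNAs), 8 with quantile normalization, 10 after normexp and 9 in the authors' deposited table. The lowest adjusted p in the list was 0.136 (limma), and 2 of the 12 had an unadjusted p under 0.05, against 51 of 143. The largest differences were those of miR-26b-5p (0.22, SE 0.13) and miR-125b-5p (0.20, SE 0.09). In list B, 4 of 6 were positive, with a median of 0.23, but 2 of 6 with all spots (median -0.084) and 1 of 6 after normexp (median -0.12). The largest there were miR-322-5p (0.39, SE 0.14, limma adjusted p = 0.0974), the rodent counterpart of human miR-424, which targets the HIF-degrading scaffold CUL2, and miR-31-5p (0.30, SE 0.15, limma adjusted p = 0.183), which in human cells targets the HIF inhibitor FIH. miR-199a-5p, which targets HIF-1 alpha in cardiac myocytes, had 0.26 (limma adjusted p = 0.0959) and was detected on 2 of 3 control arrays. With all spots the difference of miR-31-5p was -0.17. The difference of miR-210-3p, 0.51, was larger than each of these. That miRNA was selected on these arrays and passed the detection filter only through the groups where it was higher. After normexp its difference was -0.084, under the list A median of 0.054. Without high fat diet replicate 3, 12 of 12 in list A and 4 of 6 in list B were positive and 0 were called.

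For metformin against high fat diet, 3 of 12 in list A and 3 of 6 in list B were positive, with medians of -0.05 and -0.06 against -0.06 over all miRNAs, of which 37.1% were positive. Without high fat diet replicate 3, 2 of 12 and 2 of 6 were positive. The largest differences were negative, in miR-27a-3p (-0.29, SE 0.10) and miR-125b-5p (-0.19, SE 0.09) of list A and in miR-31-5p (-0.39, SE 0.15) and miR-199a-5p (-0.19, SE 0.10) of list B. With all spots these 4 were positive, at 0.18, 0.022, 0.25 and 0.14, as were 11 of 12 in list A and 5 of 6 in list B. The difference of miR-210-3p had the other sign in the reading without strips, at 0.21. For metformin against control, 10 of 12 and 4 of 6 were positive, with medians of 0.08 and 0.06 against -0.00 over all miRNAs, of which 49.7% were positive. For list B the count was 2 of 6 after normexp (median -0.057) and 6 of 6 with all spots. miR-107-3p, which in human cells targets HIF-1 beta, had 0.23 (SE 0.10). miR-322-5p had 0.23 (SE 0.14) and miR-195a-5p had 0.17 (SE 0.09). Each was short of the 0.72 of miR-210-3p, to which the same limits of selection and filter apply.

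**Figure D4:**
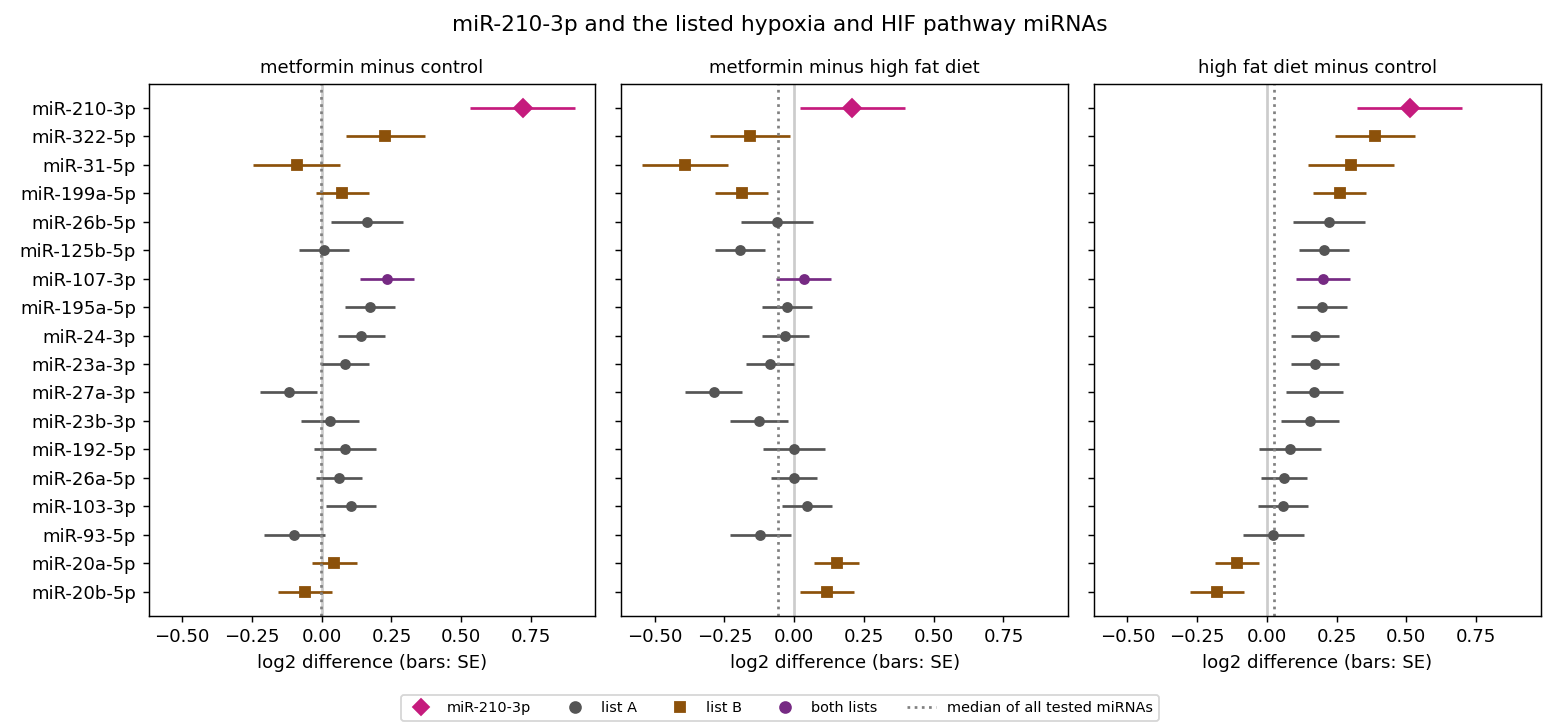
Log2 differences with standard errors of miR-210-3p (diamond) and the 17 listed miRNAs that could be tested, for metformin minus control, metformin minus high fat diet and high fat diet minus control from left to right. Circles are list A, squares list B, the purple circle is in both, and the dotted line is the median of 143 miRNAs. In this reading, with strips left out, miR-210-3p lies to the right of every listed miRNA in each panel, at 0.72, 0.21 and 0.51. In the middle panel its bar (SE 0.19) overlaps that of miR-20a-5p, at 0.15 (SE 0.08). miR-210 was selected on these arrays and passed the detection filter only through the groups where it was higher, so its place is a description.

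The miRNAs whose profile over the 9 arrays was most like that of miR-210-3p were found by the root mean square distance between log2 levels, each centred on its own mean. The nearest of 142 were miR-378d (0.26), miR-425-5p (0.30), miR-342-3p (0.30), miR-350-3p (0.31) and miR-378b (0.32), against a median distance of 0.41. For high fat diet against control these 5 had log2 differences of 0.39, 0.37, 0.39, 0.35 and 0.21. For metformin against high fat diet 37.1% of the 143 miRNAs were positive, around a median of -0.06. There these 5 had -0.12, -0.03, -0.13, -0.07 and -0.10, so each differed in sign from miR-210-3p. All share the same arrays and scaling, and each was detected on all 9 arrays.

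Markers of other liver cells moved in part with the groups. The erythroid sum (1 of 2 markers tested, miR-451a) lay at 26.6% to 30.4% of the scaling value with metformin, 50.6% to 70.2% on the high fat diet and 35.0% to 93.1% in controls, so it was lowest with metformin. The other marker in that sum, miR-144-3p, was detected on 0 arrays. The endothelial sum (1 of 2 markers tested) lay at 269% to 329% with metformin, 314% to 320% on the high fat diet and 263% to 294% in controls. The stellate cell sum (2 of 5 tested) lay at 32.7% to 35.7%, 35.1% to 39.7% and 29.1% to 31.3% in the same order, above controls in both other groups. Of the 143 tested miRNAs, 21.7% lay above controls in this way on the high fat diet and 12.6% with metformin, miR-210-3p among them. Each sum also includes the listed markers that were not tested. The leukocyte sum (2 of 5 tested) overlapped between all groups, at 25.5% to 29.5%, 28.6% to 34.0% and 27.7% to 34.4%. The part of these markers in the levels of miR-210-3p was not tested, and in pooled tissue fewer cells of a type and less RNA per cell cannot be told apart.

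The arrays also differed in place. Control replicate 3 was alone on another slide, while the other 8 shared 1 slide with 2 rows, the high fat diet arrays and metformin replicate 1 in row 1 and metformin replicates 2 and 3 and control replicates 1 and 2 in row 2. Within row 1 the brighter probe's difference of metformin (1 array) against high fat diet (3 arrays) was 0.16. Within row 2 that of metformin against control (2 arrays each) was 0.89. Those 2 controls include replicate 2, where the probe was not detected. Without that replicate the difference of metformin against control, over both rows and slides, was 0.49. On that slide high fat diet and control shared no row, so no row compares them directly. The row could be adjusted for only through the metformin arrays, which had 1 array in row 1. With the row as a block on that slide, the difference of high fat diet against control was 0.73 (SE 0.34).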

How the data were processed

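Labelled (Cy3) liver RNA was hybridised to 9 arrays. The deposited scanner files hold spot intensity after background subtraction, with no scaling between arrays, from Agilent Feature Extraction 11.5.1.1 per the file headers (10.7 per the submitters' processing notes). The authors' deposited table holds log2 values, 1 per miRNA, whose normalization no source used here states. The software's marks for detection, uniformity and saturation were used as deposited.

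Edge columns were left out in steps of 4 while at least 10% of spots of bright probes (80th percentile above 100) had under 50% of their level. A probe is the median of its remaining spots (at least 3), scaled to the 75th percentile of 187 probes on that array, floored at the 1st percentile of detected values (4.06%) and put on the log2 scale. limma 3.58.1 in R 4.3.3 fitted 3 group means with 1 shared spread, over 226 probes for miR-210 and over 143 miRNAs (brightest probe, detected on all 3 arrays of a group) for the calls, at an adjusted p of 0.05. The script was tested on simulated data. Hairpin pairing came from RNAfold 2.7.2. The number of arrays limits the precision. Replicates are pools of separate mice, and 0 pairs of arrays were identical.

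The members and both lists were chosen with earlier results of these data known. Named miRNAs are miR-210, every listed miRNA that passed, the 2 of each list with the largest difference per contrast, and the 5 nearest profiles; miR-199a-5p in the diet contrast was named after its values were seen. Alternatives changed the strips, background, scaling, floor, filter, blocks and arrays.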

Additional observations from a re-analysis of the deposited data

How the results depend on the processing

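The differences of the brighter miR-210-3p probe kept a positive sign in every alternative run except normexp, which turned the diet contrast. After normexp on the median signals (the files used here hold no mean signal), whose offset of 50 exceeds this probe's own signal, they were -0.084 for high fat diet against control, 0.12 for metformin against high fat diet and 0.031 for metformin against control. The medians of all miRNAs after normexp were -0.12, 0.05 and -0.07 in the same order. With the 75th percentile over all probes the differences of the brighter probe were 0.89, 0.48 and 1.37. With no scaling between arrays they were 0.78, 0.030 and 0.81. Left-out arrays gave 0.30 to 0.65, 0.09 to 0.31 and 0.49 to 0.88, in the same order of contrasts. Arrays with the same replicate number had correlations of -0.24 to 0.43 between their deviations from the group means. Arrays with different numbers were not compared, so this cannot decide whether the numbers pair the arrays. The replicate block left the differences at 0.51, 0.21 and 0.72 and called 22, 0 and 3 miRNAs. Dim signal limits the 3p arm, and detection on all 9 arrays as a filter gave no value for it.

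Of all miRNAs, 20 were called for high fat diet against control, but 9 with all spots, 1 with the percentile over all probes, 0 with no filter, 39 with the slide as a block, 0 with the row as a block, 6 in the columns kept on all 9 arrays, 53 with no scaling, 1 in the authors' table and 6 to 40 with an array left out (8 and 40 without control replicates 1 and 3, 6 and 7 without high fat diet replicates 1 and 2, 13 without metformin replicate 2). For metformin against high fat diet 2 were called, but 0 with all spots, normexp, quantile normalization, the percentile over all probes, no filter, the row as a block or the shared columns, 1 with the slide as a block or in the authors' table, and 0 to 3 with an array left out (0 without high fat diet replicate 2 or any 1 metformin array, 1 without high fat diet replicate 3 or control replicate 3). For metformin against control 2 were called, but 0 with all spots, normexp or no filter, 98 with the percentile over all probes, 7 with the slide and 5 with the row as a block, 1 in the shared columns or the authors' table, and 1 to 8 with an array left out (8 without control replicate 3, 1 without any 1 metformin array). Of the listed miRNAs 0 were called for high fat diet against control, but 1 with quantile normalization, the replicate block or the mean of spots, 2 with the slide as a block, 11 with no scaling and 0 to 2 with an array left out (2 without control replicate 3). For metformin against control 17 were called with the percentile over all probes.

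Signs turned for miR-31-5p (high fat diet against control, -0.17 with all spots and -0.10 with normexp; metformin against high fat diet, 0.25 with all spots and 0.16 in the authors' table) and for miR-322-5p with normexp (-0.022 for high fat diet and -0.016 for metformin, each against control). For metformin against high fat diet they also turned for miR-125b-5p (0.022 with all spots, 0.079 with the percentile over all probes), miR-199a-5p (0.14 with all spots, 0.060 with normexp, 0.085 with that percentile) and miR-27a-3p (0.18 with all spots). The causes were not tested.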

Other observations

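One spot position of the miR-210-5p probe A_54_P00005067 (row 71, column 26) read -0.314 to 7.87 on the 6 metformin and high fat diet arrays, against 38.8, 29939.6 and 26810.7 on control replicates 1, 2 and 3. The software marked both of the brightest spots as non-uniform, and they were left out of the levels given here.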
